A study of Mus musculus with 34 samples.

Results

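Aminoacyl-tRNA synthetases join each amino acid to its tRNA. The set described here holds 36 genes for these enzymes, 20 that serve the cytosol and 16 that serve mitochondria, out of 21631 protein-coding genes of the mouse autosomes and X. The rule lists the genes by name and uses no measured value, although the set itself was proposed with earlier results of these data known. All 36 were found. Each was represented by the 1 kb bins that overlap its span with 2 kb on either side in the GRCm38 build. These came to 1770 of the 2631630 bins used, with bins shared by neighbouring members counted for each.

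In mtChIL-seq, antibodies bound in fixed and permeabilised cells carry DNA probes that Tn5 transposase inserts into the chromatin around them, and RNA transcribed from the inserted probes is sequenced. All libraries came from C2C12, an immortal mouse myoblast line, and the labels name no treatment and no altered allele. H3K4me3 and CTCF were stained together in the same cells, with 1000 or 10000 cells per library, and H3K27ac and Pol2S2P (RNA polymerase II phosphorylated at serine 2 of its tail repeat) with 100 or 1000 cells. These 8 dual groups had 3 replicates each. CTCF was also stained alone at 10000 cells and Pol2S2P alone at 1000 cells, with 2 replicates each, so that 28 libraries in 10 groups were used. The labels leave unsaid whether replicates are separate cultures, and p-values then cover the spread among these libraries alone, which may be technical. A signal averages over all cells of a library, so fewer marked cells and less mark per cell cannot be told apart.

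Each gene symbol starts with the letter of the amino acid that its enzyme charges, and symbols ending in 2 are mitochondrial enzymes encoded in the nucleus. In animals 8 cytosolic enzymes (Dars, Eprs, Iars, Kars, Lars, Mars1, Qars and Rars) sit in a multisynthetase complex held together by scaffold proteins. Kars and Gars also supply the mitochondrial enzyme for lysine and glycine, and mitochondria make their glutaminyl-tRNA by amidation of a product of Ears2. When amino acids are short, the kinase Gcn2 (Eif2ak4) leads to translation of the factor Atf4, and many cytosolic synthetase genes are known Atf4 targets through a CEBP-ATF composite element. H3K4me3 marks the starts of active genes, H3K27ac marks active starts and enhancers, Pol2S2P marks elongating polymerase along gene bodies, and CTCF binds a defined DNA sequence at loop anchors and some promoters.

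Library sizes ran from 719766 to 6653298 counts, lowest in the H3K4me3 libraries at 1000 cells and highest in the single CTCF libraries. Of the myoblast markers, Myf5 stood at 42.8 times the genome mean in H3K4me3 at its start at 10000 cells, Cdh15 at 17.8 and Des at 11.8, while Myod1 (1.76), Myog (0.96) and Pax7 (0.30) were low. Of 9 markers of other cell types, Hbb-bt (blood), Alb (liver) and Snap25 (neuron) were at 0 in that group. Ptprc (0.76), Pou5f1 (0.91), Apob (1.26), Gad1 (1.27) and Nanog (1.42) lay in the range of the low myoblast genes, and the macrophage gene Cd68 was at 10.2. In H3K27ac starts at 1000 cells Cd68 (7.76) and the liver gene Apob (6.95) stood near Myf5 (7.71). The rest of these 9 markers lay at 2.03 or lower. Of the other myoblast markers Des was at 2.90 and Cdh15 at 2.34. Pax7 (0.30), Myod1 (0.29) and Myog (0.29) lay between Gad1 (0.10) and Ptprc (2.03), within the range of markers of other cell types. In Pol2S2P windows at 1000 cells Cd68 was at 14.3, the highest of all these markers, against 4.14 for Myf5. The other markers of other cell types lay at 1.17 or lower there. Des was at 2.57 and Cdh15 at 1.76, while Myod1 (0.74), Myog (0.62) and Pax7 (0.44) lay between Hbb-bt (0.40) and Apob (1.17). The part of other cell types in the results was not tested.

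Promoters of 27 of the 36 genes were in the RefSeq table for GRCm38.p6, from 250 bases before to 50 after the annotated start. The 5 promoters that held the letters TGATGNAA, a CEBP-ATF composite pattern, on either strand belonged to Aars, Gars, Iars, Tars and Yars. All 5 are among the 13 cytosolic genes with a promoter entry, and none is among the 14 mitochondrial genes. That is 18.5% of the members' promoters, and 3.5% of all 17274 promoters of the same length held the pattern. These 5 are shown because the pattern is the known response element of the family, and Kars and Mars1 because they stood among the highest H3K4me3 starts without it. Each stretch runs 5′ to 3′ on the gene's strand from 170 bases before the start to 30 after it. Capitals mark matches, on either strand, to TGATGNAA, the E-box CACGTG, the ETS pattern CCGGAAG or the NRF1 pattern GCGCNTGCG. The positions in GRCm38.p6 are chr8:111033672-111033871 on the plus strand for Aars, chr6:55037831-55038030 plus for Gars, chr13:49681960-49682159 plus for Iars, chr15:11399629-11399828 minus for Tars, chr4:129189733-129189932 plus for Yars, chr8:112011325-112011524 minus for Kars and chr10:127311757-127311956 minus for Mars1.
Aars: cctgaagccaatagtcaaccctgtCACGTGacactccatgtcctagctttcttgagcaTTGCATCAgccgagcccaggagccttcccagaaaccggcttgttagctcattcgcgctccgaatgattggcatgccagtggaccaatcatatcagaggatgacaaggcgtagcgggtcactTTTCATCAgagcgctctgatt
Gars: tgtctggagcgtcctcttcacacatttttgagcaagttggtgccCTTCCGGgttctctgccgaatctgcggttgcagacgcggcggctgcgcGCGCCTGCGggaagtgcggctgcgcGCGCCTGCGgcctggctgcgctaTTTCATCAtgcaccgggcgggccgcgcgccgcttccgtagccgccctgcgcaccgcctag
Iars: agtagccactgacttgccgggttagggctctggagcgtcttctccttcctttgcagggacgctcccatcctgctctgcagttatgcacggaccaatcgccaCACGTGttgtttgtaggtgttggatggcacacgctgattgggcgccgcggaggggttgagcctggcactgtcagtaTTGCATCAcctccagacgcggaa
Tars: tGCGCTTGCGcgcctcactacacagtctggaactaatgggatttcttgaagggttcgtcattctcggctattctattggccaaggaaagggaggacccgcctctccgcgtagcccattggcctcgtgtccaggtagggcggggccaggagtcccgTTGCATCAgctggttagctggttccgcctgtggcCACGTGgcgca
Yars: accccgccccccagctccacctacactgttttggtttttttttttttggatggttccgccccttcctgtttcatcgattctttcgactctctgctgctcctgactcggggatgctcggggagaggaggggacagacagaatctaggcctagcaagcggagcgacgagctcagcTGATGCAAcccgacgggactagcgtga
Kars: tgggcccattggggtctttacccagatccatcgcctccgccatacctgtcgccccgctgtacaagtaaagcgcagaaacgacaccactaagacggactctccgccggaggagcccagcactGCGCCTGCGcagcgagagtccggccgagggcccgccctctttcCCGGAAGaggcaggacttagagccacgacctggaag
Mars1: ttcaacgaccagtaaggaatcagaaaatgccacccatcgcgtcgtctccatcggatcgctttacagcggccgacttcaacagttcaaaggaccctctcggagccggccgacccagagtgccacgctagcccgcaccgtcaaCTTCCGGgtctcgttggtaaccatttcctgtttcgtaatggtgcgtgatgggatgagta

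The composite pattern lay close to the start in all 5 genes: its lowest base was 30 bases before the start in Gars, 15 before in Tars, and 3, 7 and 9 after in Yars, Iars and Aars, and Aars held another 112 bases before. The E-box CACGTG was in 5 of the 27 promoters (Aars, Ears2, Farsb, Iars and Tars), 18.5% against 8.01% of all promoters. Aars, Iars and Tars held it together with the composite pattern. CCGGAAG was in 9 promoters (33.3% against 12.1%) and GCGCNTGCG in 10 (37.0% against 9.12%), and both were found in cytosolic genes (5 and 6) and mitochondrial genes (4 and 4). Matches to different motifs did not overlap in these promoters, and 1 pair of GCGCNTGCG matches, in Vars2, overlapped. The members' promoters held a median of 18 CpG pairs against 14 for all promoters, with 57.7% and 56.3% G and C. Matches describe letters only and show no binding.

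H3K4me3 was high at the starts of these genes. The level at a start is the count per bin over the bins within 1 kb of it, divided by the library's mean count per bin, so that 1 is the genome mean. For 9 members with no promoter entry (Cars, Hars, Hars2, Lars, Nars, Pars2, Rars, Vars and Wars) the end of the gene with more counts of a target outside the comparison stood in for the start. In the H3K4me3 libraries at 10000 cells the median over the 36 starts was 30.7 times the genome mean, against 2.57 over all genes. Every member lay above the median of all genes, and 15 lay among the top 10% of genes.

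The cytosolic genes had a median of 35.7 and the mitochondrial genes 15.8. The highest start was that of Vars, for valine, with 63.8, 54.7 and 63.0 in the 3 libraries. Mars1, for methionine (53.2, 55.1 and 48.4), and Kars, for lysine (55.7, 46.7 and 50.2), came next. These 3 overlapped in their library values, so their order is not resolved. Vars shares its start bins with the neighbouring gene D17H6S56E-5 and Kars with Terf2ip, so their levels may include signal of those genes. Of the mitochondrial genes only Yars2 (45.8, 53.3 and 47.8), Mars2 (56.3, 36.0 and 46.6) and Hars2 lay among that top 10%, and Hars2 shares its start bins with the cytosolic gene Hars, which lies head to head with it.

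The lowest start was that of Aars2, for alanine in mitochondria, with 6.81, 3.56 and 4.24. Vars2 followed with 9.29, 10.2 and 6.66, and the libraries of these neighbours overlapped. Qars, for glutamine, was the lowest cytosolic gene with 12.4, 6.22 and 12.1. It lay below every library of Vars, Mars1 and Kars.

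**Figure D1:**
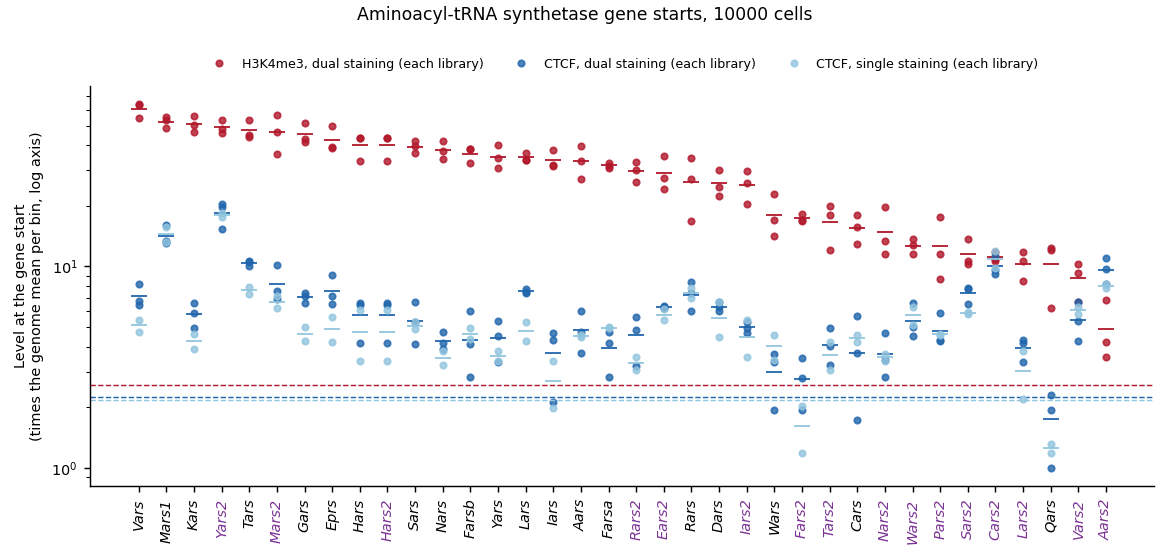
Level at the start of each synthetase gene (log axis, times the genome mean per bin) in the H3K4me3 and CTCF libraries at 10000 cells; points are libraries, short bars group means, dashed lines the medians of all genes, and purple names mitochondrial genes. H3K4me3 falls from Vars at 60.5 to Aars2 at 4.87, and CTCF stands highest at Yars2 and Mars1.

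The order of the starts was close to the same at 1000 cells, where the highest were again Mars1 (63.4, 67.3 and 57.5) and Vars (56.1, 47.3 and 45.0) and the lowest Aars2 (2.44, 4.0 and 1.67). Spearman's rho between the group means at 10000 and 1000 cells was 0.97 over the 36 members and 0.94 over 21276 genes, a description of libraries that share antibody and cell line. Across 27 members with an annotated start the highest H3K4me3 bin of the window lay within 1.5 kb of the start in 25. The exceptions were Iars2, whose highest bin lay 2.34 kb upstream, and Qars, whose highest bin (50.2 times the genome mean) lay 10.1 kb downstream in bins shared with the neighbouring gene Qrich1. Bins above 5 times the genome mean spanned a median of 4 kb around the highest bin. The single highest H3K4me3 bin was that of Vars at 107 times the genome mean (chr17:35001861-35002860), and the bins of Hars and Hars2 spanned 8 kb.

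**Figure D2:**
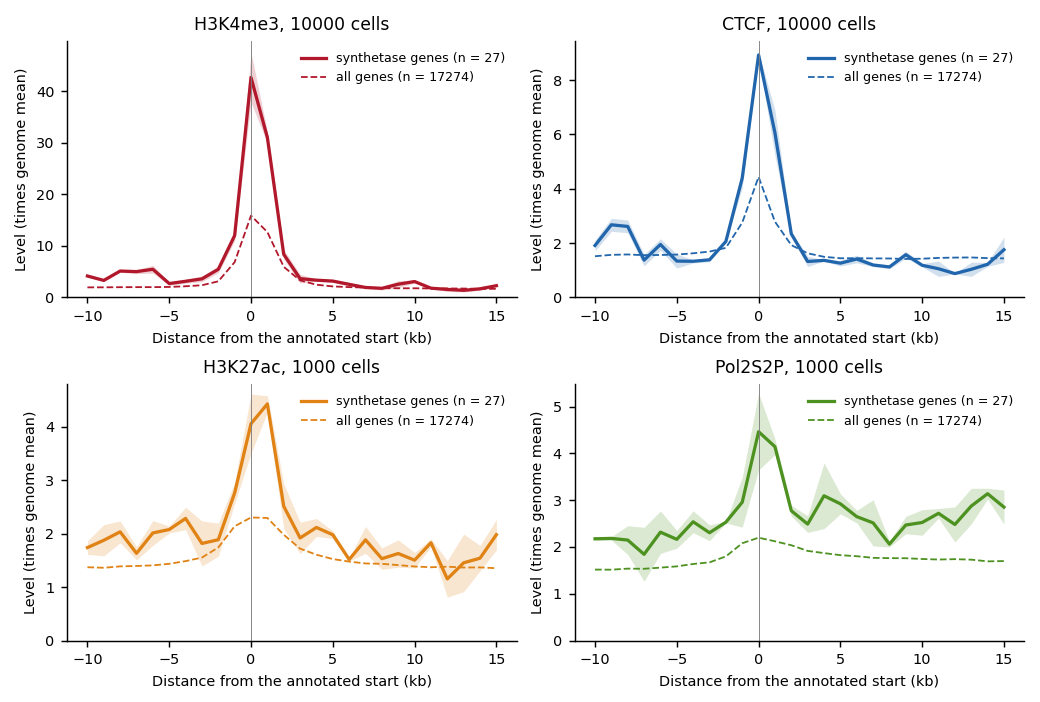
Mean level (times the genome mean) by distance from the annotated start in kb, for the 27 synthetase genes with an annotated start (solid, band ± SD over 3 libraries) and 17274 genes (dashed), in dual staining. The synthetase genes reach 42.7 in H3K4me3 at the start against 15.9 for all genes, and in Pol2S2P stay above all genes along the gene body.

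H3K4me3 against CTCF was compared at the starts to ask where the 2 targets read from the same cells part. At 10000 cells 34 of the 36 members were higher in H3K4me3 and 1 was lower (edgeR's quasi-likelihood test, Benjamini-Hochberg adjusted over 10668 genes), but 85.8% of all genes tested were higher and 5.45% lower, so the count itself is near the background. A fold change here compares shares of 2 libraries, and its zero depends on the scaling. With TMM scaling, which moved the median of all genes from 1.97 to 0.02 on the log2 scale, 17 members were higher and 7 lower, and with DESeq2 20 were higher and 4 lower. Differences are therefore also given relative to the median of all genes. Shares of all genes called, here and below, come from the fit with no further scaling. Counts under TMM or DESeq2 have no such share beside them, so their excess over the background cannot be read.

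The median log2 fold change of the members was 2.39, against 1.97 over all genes tested, and 26 of 36 lay above the latter. The compartments differed: the 20 cytosolic genes were all higher (median 2.72, 18 above the median of all genes), and of the 16 mitochondrial genes 14 were higher and 1 lower (median 1.69, 8 above). Under TMM scaling 13 cytosolic and 4 mitochondrial genes stayed higher, and the 7 lower genes were all mitochondrial: Aars2, Cars2, Pars2, Sars2, Vars2, Wars2 and Yars2. The 8 genes of the multisynthetase complex were all higher (median 2.34). With only bins that belong to no other gene, 22 of the 24 members that remained were higher and 1 lower. The difference between the compartments was not tested.

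The largest fold was that of Iars, for isoleucine, whose H3K4me3 values were 37.8, 32.0 and 31.5 against 2.13, 4.69 and 4.31 in CTCF. Every H3K4me3 library lay above every CTCF library there, with a log2 fold change of 3.17 ± 0.20 (SE, n = 3 and 3, adjusted p = 1.74e-34 by edgeR). Nars, for asparagine, followed with 3.14 ± 0.18 (adjusted p = 1.53e-37), and Kars with 3.10 ± 0.16 (adjusted p = 1.13e-42). These 3 kept their direction under every alternative run, at no less than 1.15. The libraries of the 2 targets did not overlap at 9720 of the 10668 genes tested.

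Aars2 was the single member lower in H3K4me3. Its H3K4me3 values of 6.81, 3.56 and 4.24 lay below all CTCF values of 11, 8.20 and 9.71, and the log2 fold change was -1.02 ± 0.28 (SE, n = 3 and 3, adjusted p = 0.000531 by edgeR). CTCF stained alone gave 8.16 and 7.78 at the same bins. Aars2 kept its direction and its call under every alternative run. Cars2, for cysteine in mitochondria, had close to equal shares in both targets (H3K4me3 11.8, 10.7 and 10.9; CTCF 9.57, 9.20 and 11.2), and its difference of 0.16 ± 0.22 did not pass the test.

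At 1000 cells 32 of 34 members tested were higher and 1, again Aars2, was lower, where 88.3% of all genes were higher and 3.5% lower. The median was 2.71 against 2.15 over all genes. All 20 cytosolic genes were higher, as were 12 of 14 mitochondrial genes. With TMM scaling 17 members were higher and 4 (Aars2, Cars2, Sars2 and Yars2) lower.

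The largest fold at 1000 cells was that of Kars, at 42.7, 48.6 and 39.1 against 2.54, 4.57 and 3.73 in CTCF (log2 3.53 ± 0.26, SE, n = 3 and 3, adjusted p = 1.04e-23 by edgeR). Fars2, for phenylalanine in mitochondria (3.27 ± 0.39, adjusted p = 9.14e-13), and Iars (3.19 ± 0.29, adjusted p = 4.07e-18) followed. Kars shares its start bins with the neighbouring gene Terf2ip, and Fars2 with Lyrm4. At Aars2 the H3K4me3 values of 2.44, 4.0 and 1.67 again lay below the CTCF values of 9.73, 6.45 and 8.04 (-1.47 ± 0.47, adjusted p = 0.00254 by edgeR). The libraries of the 2 targets did not overlap at 7973 of the 8789 genes tested. The difference between targets was tested for a change with cell number, and none of the 36 members passed. At an unadjusted p under 0.05 there were 3 members, and 705 of all 10310 genes tested. DESeq2 also called 0 members, and 0% of all genes passed in either direction.

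**Figure D3:**
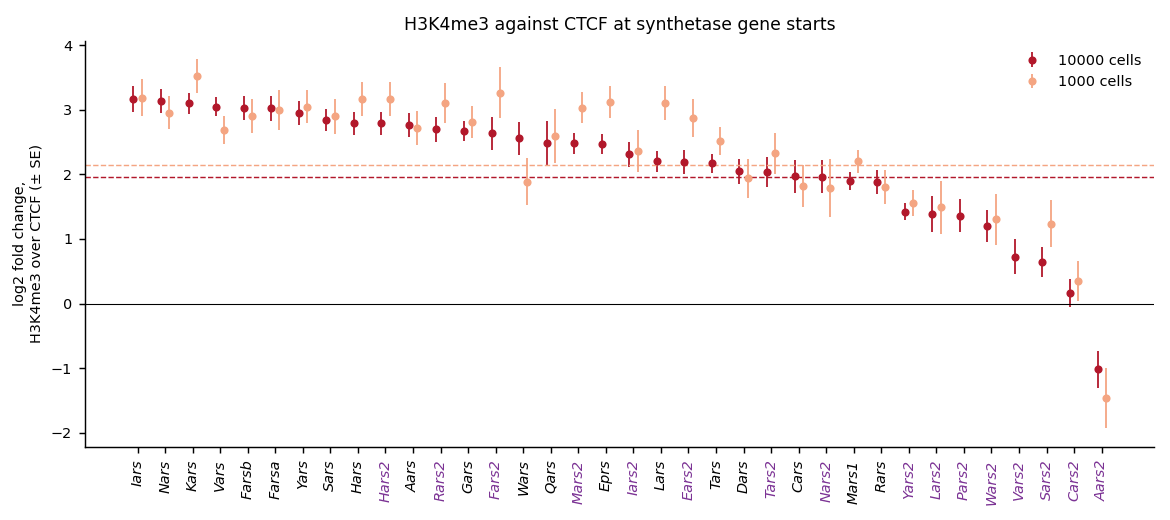
Log2 fold change of H3K4me3 over CTCF (± SE) at each synthetase gene start at 10000 and 1000 cells; purple names are mitochondrial genes and dashed lines the medians of all genes tested. Most cytosolic genes lie above the dashed lines, Aars2 lies below 0, and under TMM scaling the zero moves to about the dashed lines, so that members below them change sign.

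Over whole windows at 10000 cells 30 of 36 members were higher in H3K4me3 and 2 lower, with 49.7% of all genes higher and 28.6% lower, and the median was 1.30 against 0.32 over all genes. All 20 cytosolic genes were higher. Of the mitochondrial genes 10 were higher and 2 lower. Under TMM scaling 25 members were higher and 5, all mitochondrial (Aars2, Cars2, Fars2, Lars2 and Nars2), were lower.

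The largest fold was that of Qars, with window levels of 8.86, 6.56 and 10.9 in H3K4me3 against 1.51, 1.20 and 1.14 in CTCF (log2 2.72 ± 0.18, SE, n = 3 and 3, adjusted p = 5.33e-40 by edgeR). Its window takes in the strong H3K4me3 bin at Qrich1, and with only bins of no other gene the log2 fold change was 2.59. Hars and Hars2 followed (2.39 ± 0.13, adjusted p = 5.27e-54, and 2.34 ± 0.12, adjusted p = 2.74e-58) and share bins. Aars2 (-0.97 ± 0.19, adjusted p = 7.71e-07) and Lars2, for leucine in mitochondria (-0.23 ± 0.10, adjusted p = 0.0283), were lower, and Lars2 lost its call under 3 of 12 alternatives.

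CTCF itself was only moderately raised at the starts, with a median of 5.4 times the genome mean at 10000 cells against 2.26 over all genes. The highest was that of Yars2, for tyrosine in mitochondria, with 15.4, 20.4 and 19.6, and with 17.5 and 18.3 when CTCF was stained alone. Mars1 followed with 13.1, 13.4 and 16.0 (13.3 and 15.7 alone). The lowest was Qars with 2.30, 1.00 and 1.94 (1.19 and 1.32 alone). The dual and single libraries of Yars2, Mars1 and Qars overlapped.

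Around the highest CTCF bin of each window a median of 1 kb lay above 5 times the genome mean, against 4 kb for H3K4me3. The cut was the same for both targets, though the median highest bin was 11.3 in CTCF and 52.1 in H3K4me3. A lower peak spans less at a fixed cut, so these spans do not compare shape. The highest CTCF bin lay within 1.5 kb of the annotated start in 16 of 27 members and elsewhere in 11. In Yars2 it was the promoter bin chr16:16301936-16302935 at 28.5 ± 4.5 (SD, n = 3). The same bin held 16.1 to 29.2 in the 5 CTCF libraries that did not choose it.

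Some members had a bin inside the gene, far from its start, where CTCF stood above H3K4me3. In Lars2 it was chr9:123449501-123450500, 83.1 kb from the start, at 17.2 ± 3.0 (SD, n = 3) against 5.71 in H3K4me3. In Farsb, the beta subunit of the cytosolic phenylalanine enzyme, chr1:78419681-78420680 lay 68.7 kb from the start at 17.1 ± 0.8 against 2.11. This bin lay near the far end of Farsb and was shared with the window of the neighbouring gene Sgpp2. In Nars2 chr7:96969606-96970605 lay 18.6 kb from the start at 13.4 ± 1.6 against 4.23. The 5 CTCF libraries not used to choose these bins held 12.1 to 18.4 in Lars2, 11.4 to 21.0 in Farsb and 10.3 to 18.2 in Nars2.

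H3K27ac and Pol2S2P were raised at the same starts, by less than H3K4me3. At 1000 cells the median start level of the members was 3.48 in H3K27ac (1.45 over all genes) and 4.17 in Pol2S2P (1.56). Vars had the highest H3K27ac start with 8.38, 9.59 and 13.9, and the lowest was Nars2 with 0.559, 0.872 and 2.11. The highest Pol2S2P start was that of Aars with 7.94, 7.22 and 6.33, and the lowest that of Nars2 with 1.68, 0.555 and 1.05. Aars shares its start bins with the neighbouring gene Ddx19b, and Vars with D17H6S56E-5.

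Over gene interiors, the bins more than 2 kb inside both ends of the 34 members of at least 5 kb, Pol2S2P had a median of 2.58 against 1.45 over all genes. Interiors were cut from the gene span. Those of Aars and Aars2, whose annotated start lies further inside the span, therefore include their start bins. The cytosolic genes stood at 3.11 and the mitochondrial genes at 1.61. Rars, for arginine, was the highest with 4.06, 5.27 and 4.56, and Eprs, which charges both glutamate and proline, was close to it with 4.35, 4.71 and 4.59. Vars2 was the lowest with 0.722, 0.833 and 0.226.

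The cytosolic median lay above the mitochondrial median in all 28 libraries over interiors and over windows, and in 23 of 28 at starts. The 5 exceptions were 4 of the 5 CTCF libraries at 10000 cells and 1 H3K27ac library at 100 cells. These libraries share a cell line, and no test was made of the order.

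The targets differed in how far the start stood above the interior. The median log2 ratio over members was 4.06 in H3K4me3 at 10000 cells (2.41 over all genes), 2.37 in CTCF (1.15), 1.18 in H3K27ac at 1000 cells (0.55) and 0.70 in Pol2S2P (0.22). When the interiors of 24 members were split at the middle, H3K4me3 at 10000 cells was higher in the upstream portion in 23 (median log2 ratio 0.91) and Pol2S2P at 1000 cells in 18 (0.17). Pol2S2P at 100 cells was higher upstream in 12 of the 24 (0.05) and Pol2S2P stained alone in 15 (0.09), so its lean to the upstream portion was small and varied between groups. The 24 include Aars and Aars2, whose interiors hold their start bins. The split was not made over all genes, so it does not show a trait particular to the members. Across 34 members the H3K4me3 start level and the Pol2S2P interior level had a Spearman's rho of 0.58, and 0.76 across 16267 genes. These are descriptions across genes, which are not independent replicates.

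H3K27ac against Pol2S2P, the pair read from the same cells, asks where an active start gives way to elongation. At starts at 1000 cells 1 of 29 members tested was higher in H3K27ac and 1 lower, with 11.9% of all genes higher and 5.73% lower. An unadjusted p under 0.05 was found in 6 of the 29 members and in 2071 of the 6966 genes tested. Vars was higher (8.38, 9.59 and 13.9 against 7.94, 4.72 and 5.80 in Pol2S2P; log2 0.76 ± 0.26, SE, n = 3 and 3, adjusted p = 0.0245 by edgeR) and Rars2 lower (1.40, 2.91 and 1.81 against 4.09, 5.83 and 5.27; -1.29 ± 0.39, adjusted p = 0.00799). The groups did not overlap at either gene, nor at 2209 of the 6966 genes tested. Start bins are shared with D17H6S56E-5 in Vars and with Orc3 in Rars2. Both calls were fragile: Vars lost its call under 7 of 11 alternatives, Rars2 under 3 of 12, and DESeq2 called no member. With the replicate block Rars (log2 0.74 ± 0.28, SE, adjusted p = 0.0507 by edgeR without it) was also called higher.

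Over interiors 24 of 30 members tested were lower in H3K27ac than in Pol2S2P and 0 higher, where 38.1% of all genes were lower and 9.92% higher. The median log2 fold change was -0.58 against -0.31 over all genes, and 28 of 30 members lay below that median. The zero again moves with scaling: TMM, which brought the median of all genes to -0.02, called 13 members lower and DESeq2 called 10, with none higher under either. Of the 20 cytosolic genes 16 were lower and all 20 lay below the median of all genes, and of 10 mitochondrial genes tested 8 were lower. Tars2, for threonine in mitochondria, at 0.14 was the only member above 0 and did not pass the test.

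The largest fold was that of Farsa, the alpha subunit of the cytosolic phenylalanine enzyme, with 1.08, 1.12 and 0.647 in H3K27ac against 2.58, 3.57 and 1.36 in Pol2S2P (log2 -1.37 ± 0.38, SE, n = 3 and 3, adjusted p = 0.00134 by edgeR). The groups did not overlap, as at 6800 of the 12662 genes tested, and Farsa lost its call under 2 of 11 alternatives. Lars, for leucine, had -1.15 ± 0.14 (adjusted p = 9.09e-15). Eprs had 1.76, 2.45 and 2.1 against 4.35, 4.71 and 4.59 (-1.11 ± 0.10, adjusted p = 3.57e-24), and Lars and Eprs kept their calls under every alternative run.

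**Figure D4:**
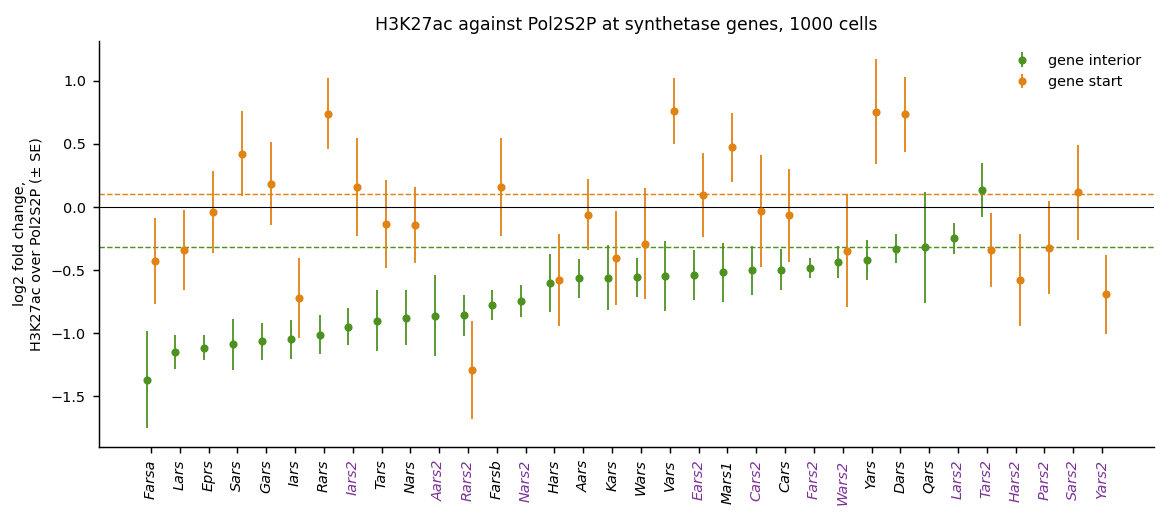
Log2 fold change of H3K27ac over Pol2S2P (± SE) at 1000 cells over the interior and at the start of each synthetase gene tested; purple names are mitochondrial genes and dashed lines the medians of all genes. Interiors lie below 0 in all tested members but Tars2, while starts lie on either side of it; under TMM scaling the zero moves to about the dashed lines.

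Over whole windows most members were again lower in H3K27ac. At 1000 cells 28 of 36 members were lower in H3K27ac and 0 higher, with 37.3% of all genes lower and 10.5% higher (median -0.61 against -0.29), and under TMM scaling 12 were lower and 0 higher. Iars was at 1.29, 1.24 and 0.890 in H3K27ac and 2.55, 2.48 and 2.23 in Pol2S2P (log2 -1.08 ± 0.13, SE, n = 3 and 3, adjusted p = 6.45e-13 by edgeR). Eprs (-1.06 ± 0.09, adjusted p = 6.16e-24) and Lars (-1.0 ± 0.12, adjusted p = 5.07e-14) followed. Vars and Vars2, at 0.04 and 0.17, were the members above 0 and did not pass.

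At 100 cells 21 of 34 members tested were lower and 0 higher, with 26.3% of all genes lower and 8.57% higher, and the median was -0.72 against -0.30. Iars was again the largest, at 0.993, 1.24 and 1.51 against 2.95, 2.76 and 3.82 (log2 -1.34 ± 0.21, SE, n = 3 and 3, adjusted p = 1.76e-07 by edgeR). Sars, for serine (-1.20 ± 0.25, adjusted p = 8.86e-05), and Farsa (-1.14 ± 0.36, adjusted p = 0.0102) followed, and Farsa lost its call under 5 of 12 alternatives. TMM scaling left 9 members lower: Cars2, Eprs, Gars, Iars, Iars2, Lars, Rars, Rars2 and Sars. No member's difference changed between 1000 and 100 cells by the interaction test, with 0 at an unadjusted p under 0.05, 0 by DESeq2 and 0% of all genes in either direction. Of all 17146 genes tested 815 had an unadjusted p under 0.05.

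Dual against single staining compares a target read with and without the second antibody. By their titles the single libraries are separate stainings. An effect of the second antibody therefore cannot be told apart from a difference in preparation. For CTCF over windows at 10000 cells no member differed by edgeR. The count at an unadjusted p under 0.05 was 3 of 36, against 2165 of 18878 genes tested, and DESeq2 called 0 members. Of all genes 0.26% were higher and 0.328% lower in dual staining. The members' log2 fold changes ran from -0.32 to 0.41, with a median of 0.07 against 0.01 over all genes.

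For Pol2S2P at 1000 cells 23 of 36 members were lower in dual than in single staining and 0 higher, where 37.5% of all genes were lower and 9.9% higher. The median was -0.38 against -0.24. Of the cytosolic genes 17 of 20 were lower (median -0.49) and of the mitochondrial genes 6 of 16 (median -0.22). TMM scaling, which brought the median of all genes to about 0, left 9 members lower and made 1, Nars2, higher, and DESeq2 called 3 lower (Qars, Vars and Yars2) and Nars2 higher. Without single replicate 1, 12 members were lower.

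Vars had the largest difference, with window levels of 2.45, 3.46 and 3.40 in dual against 7.68 and 7.39 in single staining (log2 -1.29 ± 0.15, SE, n = 3 and 2, adjusted p = 7.33e-16 by edgeR). At its start the dual libraries held 7.94, 4.72 and 5.80 and the single libraries 21.4 and 21.2. Yars2 was at 4.53, 5.53 and 4.31 against 9.96 and 11.2 (-1.14 ± 0.16, adjusted p = 1.60e-10), and Qars at 2.28, 2.18 and 2.62 against 5.56 and 4.32 (-1.09 ± 0.21, adjusted p = 3.87e-06). Dual and single libraries did not overlap at these 3 genes, nor at 11255 of the 17766 genes tested. All 3 kept their calls under every alternative run. The median log2 ratio of start over interior was 1.21 in single and 0.70 in dual staining (0.90 and 0.22 over all genes).

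**Figure D5:**
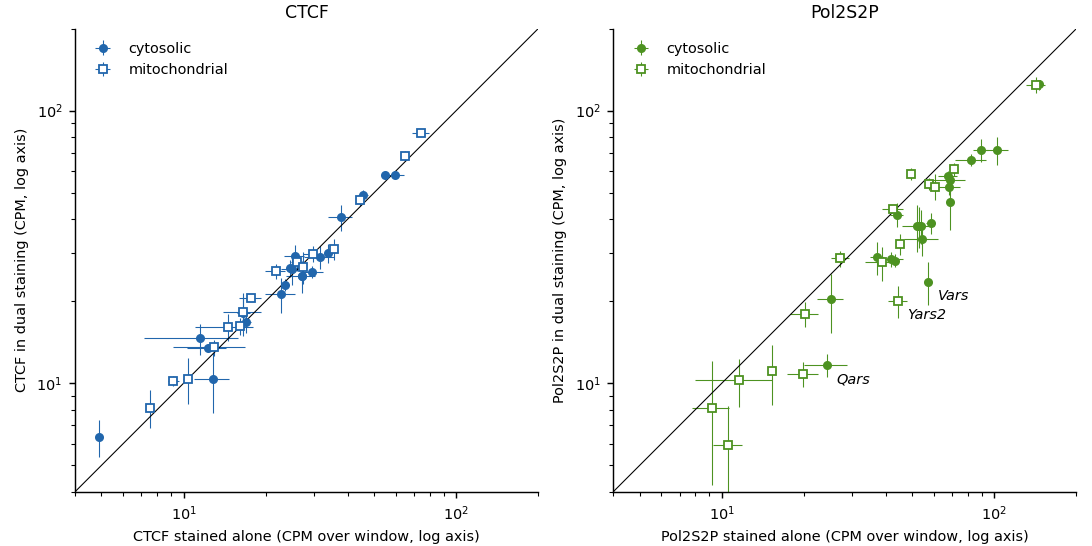
CPM (counts scaled to a library of 1000000) over each synthetase gene's window in dual against single staining for CTCF (10000 cells) and Pol2S2P (1000 cells), mean ± SD on log axes; filled circles are cytosolic, open squares mitochondrial genes, and the line marks equal values. CTCF lies along the line, and in Pol2S2P most genes lie below it, with Vars, Yars2 and Qars farthest below; with TMM scaling Nars2 lies on the higher side.

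Between numbers of cells Vars2 was the only member called, with start levels in H3K4me3 of 9.29, 10.2 and 6.66 at 10000 cells and 4.87, 2.00 and 2.5 at 1000 (log2 1.61 ± 0.49, SE, n = 3 and 3, adjusted p = 0.0347 by edgeR, 35 members tested), where 4.09% of all genes were higher and 0.0549% lower at 10000 cells. The call was lost under 7 of 10 alternatives, DESeq2 among them. Over windows no member differed by edgeR or DESeq2 between 10000 and 1000 cells in CTCF, with 4 at an unadjusted p under 0.05 (0.0718% of all genes higher and 0.0718% lower). The same held between 1000 and 100 cells in H3K27ac, with 1 (0% higher and 0% lower), and in Pol2S2P, with 3 (0% higher and 0.00601% lower). Of all genes 1916 of 18110 had an unadjusted p under 0.05 in CTCF. In H3K27ac 1049 of 15721 did, and in Pol2S2P 1149 of 16647. The members' log2 changes ran from -0.62 to 0.76 in H3K27ac, -0.47 to 0.35 in Pol2S2P and -0.31 to 0.35 in CTCF. With next to no gene called genome-wide, these tests do not show that the levels were alike.

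The neighbouring steps of the pathway were read from lists of named genes. In H3K4me3 against CTCF at starts at 10000 cells all 3 scaffold genes of the multisynthetase complex were higher (median log2 3.04 against 1.97 over all genes), as were 7 of 8 elongation factors (2.46), which bring charged tRNA to the ribosome and move it on, all but mitochondrial Tsfm. Of the genes for mitochondrial amidation and formylation 3 of 4 were higher (1.66; Gatb was not), and of those for proofreading and hydrolysis 5 of 6 (1.94; Dtd1 was not). All 16 amino acid stress genes tested were higher (2.09). Atf4 was at 2.75 ± 0.15 and its target Asns, asparagine synthetase, at 2.70 ± 0.25 (SE). These counts too stand beside the background of 85.8%, and several directions change with the scaling. Under TMM the genes called higher were the scaffold genes Aimp1 and Aimp2, the elongation factors Eef1a1, Eef1b2, Eef1d and Eef1g, the amidation genes Qrsl1 and Gatc, the peptidyl-tRNA hydrolase Ptrh2 and the stress genes Atf4, Asns, Psph and Shmt2. Those lower under TMM were Tsfm, Gfm1, Gatb, Mtfmt, Dtd1, Dtd2, Trib3 and Cebpb, of which the first 4 act in mitochondria. Relative to the median of all genes 3 of 3 scaffold, 5 of 8 elongation, 2 of 4 amidation, 3 of 6 proofreading and 12 of 16 stress genes lay above it.

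In H3K27ac against Pol2S2P over windows at 1000 cells, where 37.3% of all genes were lower, 2 of 3 scaffold genes, 6 of 8 elongation factors, 1 of 4 amidation genes, 4 of 6 proofreading genes and 9 of 17 stress genes were lower. Eef1a1, which delivers charged tRNA in the cytosol, had -1.02 ± 0.14 and Asns -1.20 ± 0.24, and Cebpb, a partner of Atf4, was the single gene of these lists that was higher (0.63 ± 0.23; SE, adjusted p = 0.0133 by edgeR). Under TMM scaling 5 elongation factors, 1 scaffold gene (Eef1e1), 1 amidation gene (Gatc), 2 proofreading genes (Prorsd1 and Ptrh2) and 2 stress genes (Asns and Phgdh) were called lower, while Cebpb, Eif4ebp1 and Dtd2 were higher. At 100 cells, where 26.3% of all genes were lower, 0 of 3 scaffold genes, 6 of 7 elongation factors tested, 1 of 4 amidation genes, 2 of 6 proofreading genes and 5 of 16 stress genes tested were lower. Cebpb was again higher (1.17 ± 0.34; SE, adjusted p = 0.00428 by edgeR), and under TMM scaling Eef1a1 and Ptrh2 were the genes of these lists called lower. In Pol2S2P dual against single staining, where 37.5% of all genes were lower, all 3 scaffold genes and all 8 elongation factors were lower, as were 14 of 17 stress genes and 4 of 6 proofreading genes, but 1 of 4 amidation genes. Eef2 was at -1.30 ± 0.11 and Atf4 at -1.37 ± 0.12, while Slc7a11, a cystine transporter, was higher in dual staining (0.74 ± 0.13, adjusted p = 1.16e-07). Under TMM scaling 6 of the 8 elongation factors (all but Tsfm and Gfm1) and 9 stress genes were called lower in dual staining, Slc7a11 was called higher, and no scaffold, amidation or proofreading gene was called.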

How the data were processed

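Targets were read by mtChIL-seq in C2C12 cells. The authors deposited unscaled raw counts per 1 kb bin; the submitters' processing notes name bcl2fastq, HISAT2 2.1.0, deepTools 3.3.1 and GRCm38. How duplicates and antibody barcodes were handled: not given in the sources used here. Libraries were grouped by title; 28 of 32 columns matched a sample, 4 columns were not used, and 6 labelled samples were not analysed here. Bins on the autosomes and X were kept except 9 that exceeded the genome mean more than 50-fold throughout, and their total was the library size (719766 to 6653298 counts). No source names molecular identifiers, so reads may not be independent molecules.

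Counts were summed over windows, starts and interiors for all 21631 genes and tested with edgeR 4.0.16 (quasi-likelihood, filterByExpr, no further scaling, Benjamini-Hochberg over all genes tested, threshold 0.05; R 4.3.3). Starts came from the RefSeq promoter table (GRCm38.p6), and for 9 members from the end with more counts of a target outside the comparison. Among members with an annotated start this rule took the annotated end in 22 of 27. Over all such genes it did so in 65.5% for H3K4me3 and CTCF and 72.7% for H3K27ac and Pol2S2P, ties aside. Of the 21631 genes 4357 had no annotated start and depended on the rule. The tests were tried on simulated data first. The quasi-likelihood test itself gives no SE. Each SE of a fold change was worked back as the absolute log2 fold change divided by the square root of the test's F statistic. Alternatives were TMM scaling, DESeq2 1.42.0, no filter, a replicate block, leaving out each library, bins of no other gene, other region widths and, added after seeing the data, annotated starts only. In each comparison the 3 called members with the largest folds in each direction and at least 20 counts in the higher group are given in full; the lists of the pathway, and the members themselves, were chosen with earlier results of these data known. Same-numbered dual libraries are, by their titles, readouts of one staining, which pairs the 2 targets; deviations from the group means correlated at 0.029 to 0.142 between them, and in each of the 7 comparisons all 3 libraries correlated best with their own number. Of 36 members 19 have windows that overlap another gene and 12 share start bins with one.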

Additional observations from a re-analysis of the deposited data

How the results depend on the processing

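Of 161 alternative counts of called members 133 stayed within 1.5 times the reported count and 28 moved. In none did the more frequent direction reverse, but calls of some members did. Under TMM scaling at starts at 10000 cells Pars2, Sars2, Vars2, Wars2 and Yars2 went from higher to lower in H3K4me3 against CTCF. Of 329 alternative values of the members given in full 302 kept direction and call and 27 lost the call. The counts depend most on scaling. With TMM scaling, H3K4me3 against CTCF at starts at 1000 cells had 21 members called, H3K27ac against Pol2S2P 1 at starts, 13 over interiors, 12 over windows at 1000 cells and 9 at 100, and Pol2S2P dual against single 10. DESeq2 gave 0, 10, 10 and 8 in the H3K27ac comparisons and 4 for dual against single. With bins of no other gene, fewer members were tested, and H3K4me3 against CTCF at starts at 10000 cells had 23 called and H3K27ac against Pol2S2P at starts 0. That last comparison had 1 with no filter and 1 with annotated starts only. H3K4me3 at 10000 against 1000 cells fell to 0 with TMM, DESeq2, no filter and bins of no other gene.

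Leaving out 1 library gave 33 to 34 called (H3K4me3 against CTCF starts, 1000 cells), 34 to 35 (10000 cells), 30 to 32 (windows), 1 to 2 (H3K27ac against Pol2S2P starts), 19 to 23 (interiors), 22 to 26 and 16 to 20 (windows at 1000 and 100 cells), 12 to 21 (Pol2S2P dual against single, 12 without single replicate 1) and 0 to 1 (H3K4me3 cell number, 0 without any of 5 libraries). The other comparisons stayed at 0.

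With the replicate block, which pairs the 2 targets of one dual staining, 35, 33 and 32 members were called in the H3K4me3 against CTCF comparisons (starts at 10000 and 1000 cells, windows), and 3, 26, 29 and 21 in those of H3K27ac against Pol2S2P (starts, interiors, windows at 1000 and 100 cells), with no count moved by over 1.5 times. Between stainings and cell numbers libraries share only a number (correlations 0.007 to 0.010 in dual against single Pol2S2P); there the block gave 19 for Pol2S2P dual against single and 0 for H3K4me3 by cell number. The cause of these shifts was not tested. Low counts limit Aars2 and Vars2 in H3K4me3 and starts in H3K27ac and Pol2S2P, where 29 of 36 members could be tested.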
